A study of Homo sapiens with 12 samples.

Results

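The HOX cluster genes are the 39 genes of the count table whose symbols are HOX, a cluster letter from A to D and a number. They were chosen by symbol alone, from 26485 genes in the table. The HOXA cluster gave 11 of them, HOXB 10, HOXC 9 and HOXD 9, and 37 had enough counts to be tested. *HOXB1* and *HOXC12* did not pass the filter on low counts.

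HOX genes encode transcription factors that bind DNA through a homeodomain and give cells along the body axis their regional identity. They lie in clusters on different chromosomes, and genes of the same number in different clusters descend from a common ancestor and are called paralogues. In embryos, low-numbered genes are switched on early and in anterior regions, and high-numbered genes late and in posterior regions, limbs and the urogenital tract. Polycomb complexes hold the clusters silent, trithorax complexes keep them active, retinoic acid and Wnt signals act upstream, and TALE homeodomain proteins (the PBX, MEIS and PKNOX families) bind DNA together with HOX proteins. Established lines keep a stable HOX pattern that reflects the tissue they came from.

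Poly(A) RNA-seq was analysed in HEK293 cells, an established line from human embryonic kidney, labelled wild type in all groups. The cells were transfected with *PEG10* gag-pol, *PEG10* gag, the *PEG10* nucleocapsid (NC) or a control, LifeAct-Dendra2, which is an actin-binding peptide joined to a fluorescent protein. *PEG10* is a domesticated retrotransposon gene, gag is the part of its product that forms capsids, gag-pol is gag extended by a frameshift, and NC is the nucleic acid-binding end of gag. The question was how HOX levels were set in these cells and whether each construct changed them. Each construct had 3 replicates, which the series describes as independent passages, and nothing further shows how separate the cultures were. All constructs were expressed by transient transfection of a single line, so every library also holds the line's own *PEG10*.

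On GRCh38, the HOXA genes lie at chr7:27092993-27200091, the HOXB genes at chr17:48528526-48728750, the HOXC genes at chr12:53938831-54056030 and the HOXD genes at chr2:176092721-176190907. The spans are 107.1, 200.2, 117.2 and 98.2 kb. Each gene carries a homeobox of 180 bases that lies within 1 exon. The homeoboxes of *HOXA13* and *HOXC6* are shown because these genes differed between a *PEG10* construct and control, with the codons of the invariant core of the DNA-contacting helix in capitals. They are read on the reverse strand at chr7:27198222-27198401 for *HOXA13* and on the forward strand at chr12:54029675-54029854 for *HOXC6*, in GENCODE release 44.
HOXA13 homeobox: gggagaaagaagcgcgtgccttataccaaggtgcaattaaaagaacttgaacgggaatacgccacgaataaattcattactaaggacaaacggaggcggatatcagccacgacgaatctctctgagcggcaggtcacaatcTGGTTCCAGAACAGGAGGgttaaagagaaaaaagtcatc
HOXC6 homeobox: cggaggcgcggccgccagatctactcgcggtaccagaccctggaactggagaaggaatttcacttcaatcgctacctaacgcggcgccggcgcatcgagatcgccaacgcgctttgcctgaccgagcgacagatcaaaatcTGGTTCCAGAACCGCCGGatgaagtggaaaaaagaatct

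The homeobox is the part of these genes most alike between members, so it bears on how well reads can be assigned. Homeobox identity had a median of 81.7% in the 42 pairs of the same number (69.4 to 90.6%) and of 60.6% in the other 699 pairs (47.8 to 91.1%). *HOXA13* was closest to *HOXC13* (76.1%) and *HOXC6* to *HOXA6* (86.7%). The longest run of identical bases between the main transcripts of any pair was 62 bases, in *HOXB3* and *HOXD3*. Between *HOXA13* and any other member it was 23 bases, between *HOXC6* and any other 23, and between *HOXB5* and *HOXB4* 50.

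Overlapping transcripts are a second limit, since the strand setting of the counting is not given in the sources used here. Each share given here is over all overlapping genes, also those without a gene name. Antisense transcripts cover 62.5% of the *HOXA7* exons, with *HOXA-AS3* the one named, and 60.1% of those of *HOXD1*, with *HAGLR* named. Counts of *HOXA7* and *HOXD1* are therefore uncertain. So are those of *HOXC5* and *HOXA4*, which share 67.3% and 31.3% of their exon bases on the same strand. The same holds for *HOXA6* (39.3% antisense), *HOXA11* (27.2% antisense, with *HOXA11-AS* named) and *HOXD8* (24.4% antisense). Smaller overlaps affect other members, among them *HOXC4*, with 17.5% on the same strand. On the same strand, *HOXC6* shares 16.1% of its exon bases, with *HOXC4* and *HOXC9* among its partners. *HOXD10* shares 18.2%, with *HOXD11* among them. Antisense overlap covers 1.7% of the exon bases of *HOXA13*, with *HOTTIP* named, and 3.9% of those of *HOXB5*, with *HOXB-AS3* named.

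RefSeq promoter windows of 300 bases on the same assembly, from 250 before to 50 after a gene's start, were matched to 20 of the 39 genes, in 27 windows, with 1 window shared by *HOXC4* and *HOXC5*. The 250 bases upstream of *HOXA13* and *HOXD10* are shown because *HOXA13* was the member that rose against control and *HOXD10* had the lowest p-value of the members between replicate numbers. They lie at chr7:27200092-27200341 on the reverse strand and at chr2:176116528-176116777 on the forward strand. Capitals mark matches to CCAAT on either strand.
HOXA13 upstream: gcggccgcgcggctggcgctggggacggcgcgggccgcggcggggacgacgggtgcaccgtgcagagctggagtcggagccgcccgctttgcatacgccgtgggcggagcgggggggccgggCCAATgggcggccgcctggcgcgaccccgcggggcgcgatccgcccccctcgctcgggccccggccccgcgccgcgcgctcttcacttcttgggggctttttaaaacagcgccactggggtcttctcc
HOXD10 upstream: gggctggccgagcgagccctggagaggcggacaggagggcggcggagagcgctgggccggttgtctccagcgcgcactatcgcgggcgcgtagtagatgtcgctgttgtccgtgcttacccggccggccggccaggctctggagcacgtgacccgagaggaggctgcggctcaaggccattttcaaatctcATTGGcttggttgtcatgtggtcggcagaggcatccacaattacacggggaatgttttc

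CCAAT, on either strand, stood in 66.7% of the 27 HOX windows and in 34.6% of all 35116 windows, each of 300 bases. A TATA box (TATAAA) stood in 18.5% of HOX windows against 11.5% of all, and the HOX-PBX site TGATNNAT in 11.1% against 7.4%, with no overlap between the letters of the motifs. Over the 300 bases, HOX windows held a median of 22 CG dinucleotides against 14 in all, at a similar median GC content (58.0% against 58.7%). Most of the HOX windows belong to HOXA and HOXD genes, several of them to *HOXA3*. *HOXB1* is the only HOXB gene among them, and the window shared by *HOXC4* and *HOXC5* is counted for each. The shares therefore describe these windows and not the 4 clusters evenly. These are descriptions of letters, since binding was not measured.

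Library totals ran from 30625725 to 45316749 counts, and HOX genes took 0.1227 to 0.1497% of them. Raw counts of the transfected gene, *PEG10*, set control, NC and the longer constructs apart. They were 7817 to 14243 in the control libraries, whereas the NC libraries held 98420 to 132613, the gag-pol libraries 1267102 to 2815833 and the gag libraries 1437939 to 2370308. These counts are not scaled by the length of the insert, which is shortest for NC. In the edgeR test, NC against gag-pol did not pass, at log2 -3.85 ± 0.425 (SE, edgeR adjusted p = 0.0604). Nor did gag-pol against gag (log2 -0.25 ± 0.381, SE, edgeR adjusted p = 0.753). Of 12 markers of the line's known kidney, neuronal and epithelial traits, all had counts, with *PAX8* lowest (0 to 10 counts). Their summed normalized count spanned 41414 to 50676 in control libraries, 46436 to 46819 in gag libraries, 53149 to 55496 in gag-pol libraries and 52515 to 64807 in NC libraries, so all gag-pol and NC libraries lay above all others. Such a sum weighs abundant markers most, and the markers did not move together. Of 11 tested, edgeR called 3 with gag-pol, *NEFL* (log2 0.56) and *LHX1* (0.55) higher and *NEFH* (-1.40) lower. With NC it called 3, *NEFL* (0.75), *VIM* (0.36) and *CDH2* (0.28), all higher, and with gag 0. The shares over all genes were 11.3%, 11.2% and 1.08%. Of 10 markers of other cell types, *PTPRC* was at 0 in control and gag-pol and *HBB* at 0 in control, gag-pol and NC, and the sum of all but *MYH6* was 325 to 718 normalized counts. Of these markers 6 were tested. With gag-pol, edgeR called *ALB* (log2 -2.09) and *COL3A1* (-1.63) lower (edgeR adjusted p = 0.0127 and 0.0170). With NC it called *COL3A1* lower (-1.65, edgeR adjusted p = 0.0167). The shares over all genes were 11.3% and 11.2%. With gag it called 0, while 3 had an unadjusted p under 0.05. *MYH6*, a cardiac myosin, had 4864 counts in gag replicate 2 and 1 to 14 in the others. The part of these marker differences in the HOX results was not tested. In bulk RNA, fewer cells with a transcript and less transcript per cell cannot be told apart.

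HEK293 cells transfected with the control expressed all 4 HOX clusters, from the anterior genes to the posterior ones. Levels are given as TMM-scaled counts per kilobase of exon, per 1000000 counts, a scale on which genes can be compared. Summed over a cluster, the control level was 120.4 ± 7.70 (SD, n = 3) for HOXA, 180.2 ± 11.9 for HOXB, 128.3 ± 16.4 for HOXC and 107.9 ± 15.3 for HOXD. HOXB therefore held 33.6% of the HOX level, HOXC 23.8%, HOXA 22.5% and HOXD 20.1%. The control libraries of HOXB lay above those of every other cluster, and those of HOXA, HOXC and HOXD overlapped.

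By position, groups 9 to 13 held 49.97% of the control HOX level in 16 genes, groups 5 to 8 held 25.9% in 11 genes and groups 1 to 4 held 24.1% in 12 genes. The sums were 267.8 ± 16.3, 139.1 ± 15.9 and 129.9 ± 15.5 (SD, n = 3). No cluster showed a steady course along its length. Spearman's rho between group number and control level, across genes that share their libraries, was 0.34 in HOXA (n = 11), 0.18 in HOXB (n = 10), -0.37 in HOXC (n = 9) and 0.45 in HOXD (n = 9).

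**Figure D1:**
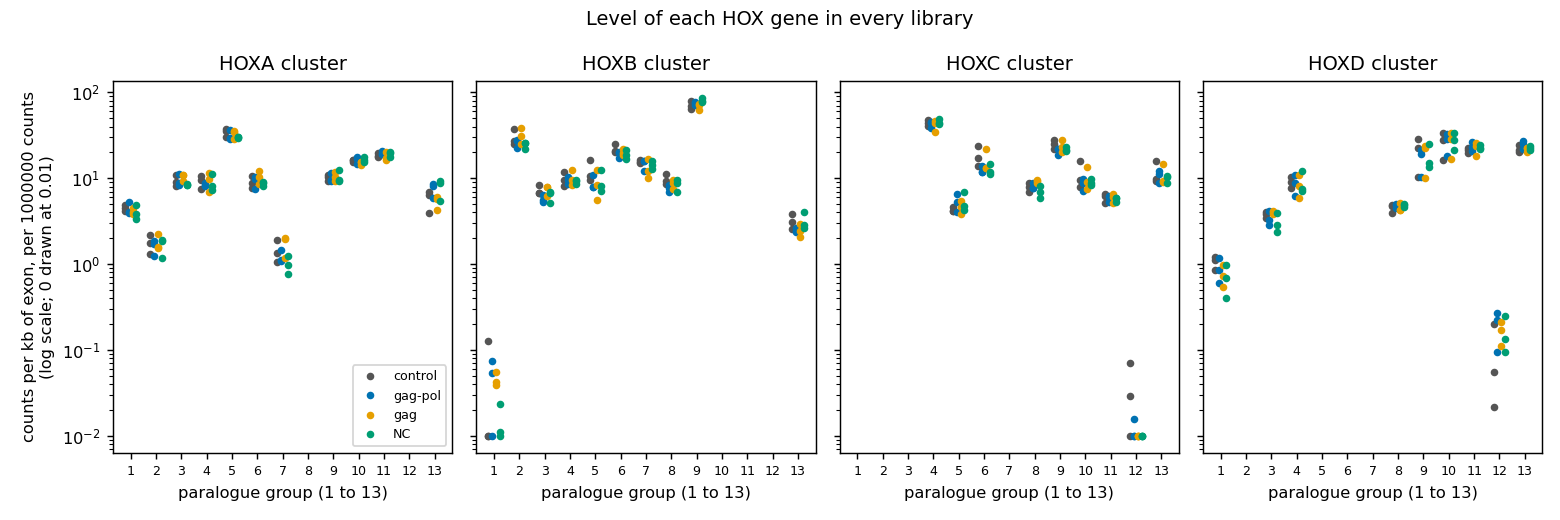
Level of each HOX gene in each of the 12 libraries, in TMM-scaled counts per kilobase of exon, per 1000000 counts on a log axis, by paralogue group within each cluster, with 1 point per library, colored by construct and a value of 0 drawn at 0.01. On this scale HOXB9 is the highest gene, and HOXB1, HOXC12 and HOXD12 sit below all others. The spread of the libraries differs by gene, for example from 0.0214 to 0.272 at HOXD12 and from 10.2 to 28.5 at HOXD9.

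The highest gene was *HOXB9*, a thoracic patterning gene, with a control level of 71.0 ± 8.12 (SD, n = 3). *HOXC4*, a gene of the neck region, followed at 44.3 ± 3.34, and *HOXA5*, known for its role in lung and trachea, at 34.4 ± 3.68. The 3 *HOXB9* control libraries (63.8 to 79.8) lay above the 3 of *HOXC4* (40.9 to 47.6), which lay above those of *HOXA5* (30.5 to 37.8). This order depends on the length used. With the longest transcript in place of all exons, *HOXC4* stood at 71.7, ahead of *HOXB9* at 71.0, and *HOXA5* at 35.5 fell to rank 5.

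Below this, the order was not resolved for most neighbors. Of 38 neighboring pairs in the control order, 32 overlapped in their libraries. *HOXB2*, a hindbrain gene, stood at 29.8 ± 6.45, and the lumbar gene *HOXD10* at 26.1 ± 8.81. Among the posterior genes, *HOXD13* stood at 21.9 ± 2.08, *HOXA11* at 18.6 ± 0.811 and *HOXC13*, which controls hair keratins, at 11.7 ± 3.72. *HOXA13* stood at 5.75 ± 1.60 and *HOXB13*, a prostate gene, at 3.13 ± 0.624. These terminal genes thus spread over much of the range.

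At the low end, *HOXA2*, which gives the second pharyngeal arch its identity, stood at 1.76 ± 0.435, *HOXA7* at 1.45 ± 0.449 and *HOXD1* at 1.06 ± 0.176. *HOXD12* had 2 to 27 counts per library, *HOXB1*, a hindbrain gene, 0 to 11, and *HOXC12* 0 to 8. *HOXB1* was at 0 in 4 libraries and *HOXC12* in 7, and no fold is given for either. Genes with few or no counts thus stood beside expressed neighbors in HOXB, HOXC and HOXD.

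Against control, gag-pol changed 3 of the 37 HOX genes tested, 8.11%, against 11.3% of all 17176 genes tested. *HOXA13* rose, and *HOXC6* and *HOXB5* fell. Among all genes, 5.48% were called higher and 5.83% lower. The median log2 fold change of the HOX genes was -0.08, against -0.0014 for all genes, and 13 of the 37 were above 0. By cluster, the medians were -0.02 for HOXA, -0.21 for HOXB, -0.07 for HOXC and 0.05 for HOXD. The sign of the HOX median rested on single libraries, since it was 0.01 without control replicate 3, with 20 of 37 above 0, -0.0027 when replicate 3 of gag-pol was left out and -0.15 when its replicate 1 was. The number called was 1 without control replicate 3 and 5 without NC replicate 2.

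NC changed 2 of the 37, 5.41% against 11.2% of all genes, with *HOXA13* higher and *HOXC6* lower. Among all genes, 6.04% were called higher and 5.15% lower. The HOX median was -0.10, against 0.004 for all genes, and again 13 of 37 were above 0. The cluster medians were -0.06 for HOXA, -0.17 for HOXB, -0.19 for HOXC and 0.05 for HOXD. The HOX median was -0.02 without control replicate 3, -0.17 when replicate 1 of control was dropped and -0.04 when replicate 2 of NC was. Without gag-pol replicate 3 the count was 4. Gag-pol and NC were set against the same 3 control libraries.

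With gag, edgeR called 0 of the 37, against 1.08% of all genes. At an unadjusted p under 0.05 there were 3, all in HOXB, and DESeq2 called 1, *HOXB5*. The HOX median was -0.03, against 0.0027 for all genes, and ran from -0.06 without gag replicate 3 to -0.0027 without gag replicate 1.

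**Figure D2:**
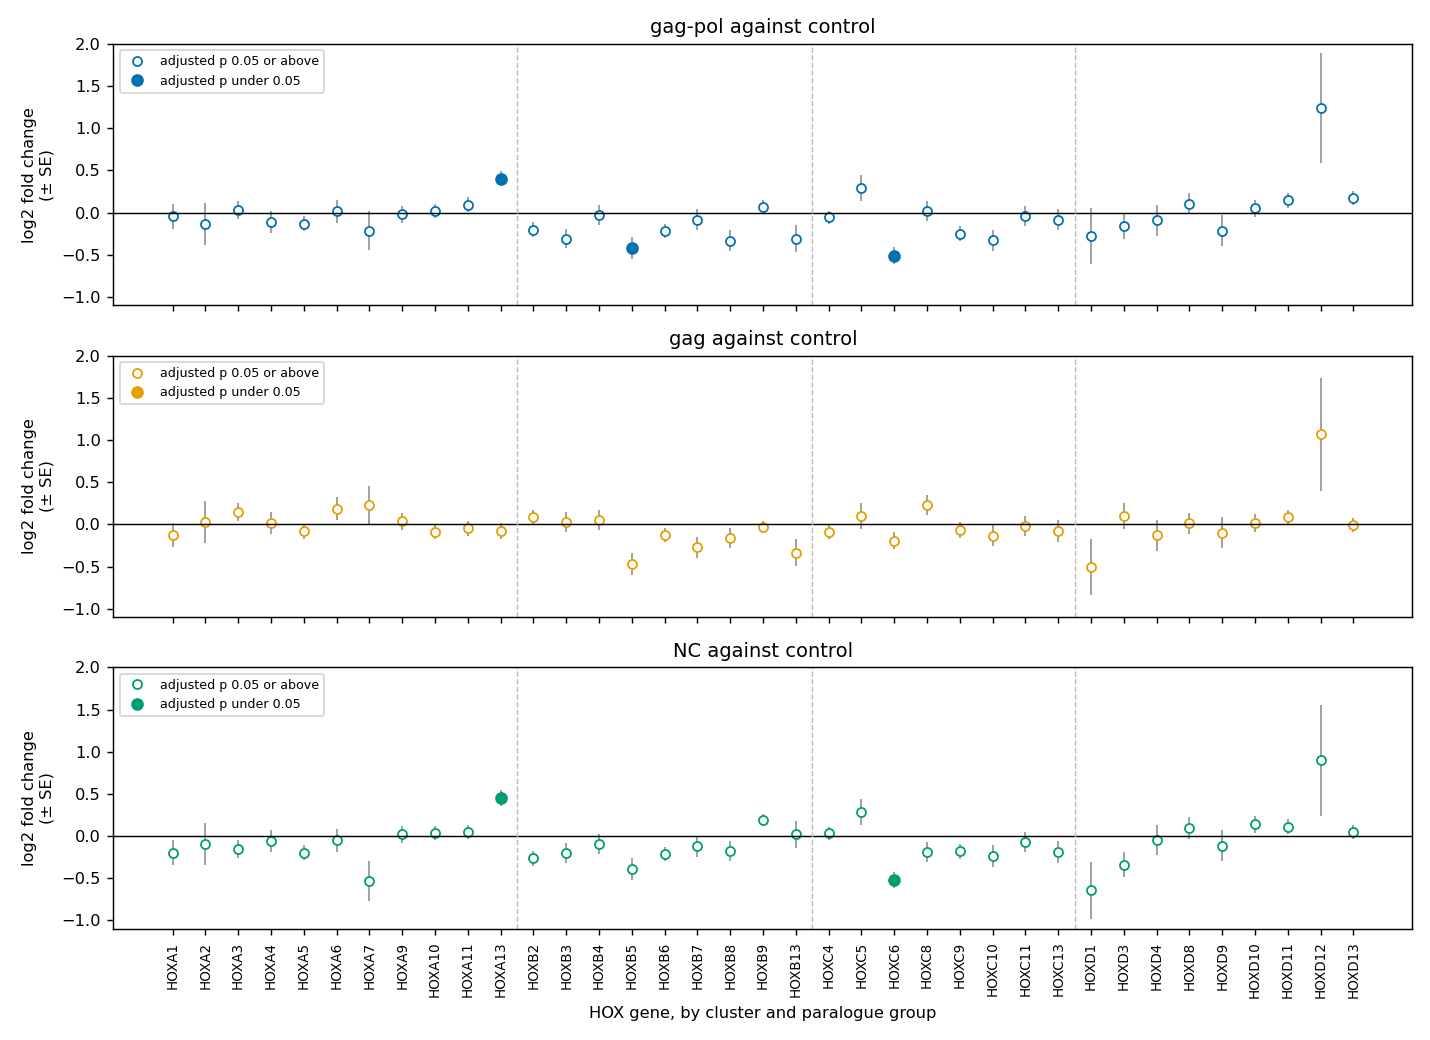
Log2 fold change against control (y axis, ± SE) for the 37 HOX genes tested, in cluster order, for gag-pol, gag and NC, with filled points for an adjusted p under 0.05 in edgeR's quasi-likelihood test. HOXA13 is filled above 0 and HOXC6 below 0 for gag-pol and NC, HOXB5 is filled for gag-pol alone, though its adjusted p with NC was 0.0504, and the wide error of HOXD12 goes with its 2 to 27 counts.

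*HOXA13*, which patterns the digits and the urogenital tract, had normalized read counts of 1311, 1230 and 748 in replicates 1, 2 and 3 of control, the order used throughout. The counts were 1566, 1621 and 1108 with gag-pol, 1095, 1148 and 813 with gag, and 1669, 1774 and 1038 with NC. Replicate 3 was the lowest library of every construct, so the groups overlapped, but gag-pol and NC lay above control in each of the 3 replicate numbers. The rise was 0.40 ± 0.0933 (log2, SE) with gag-pol (edgeR adjusted p = 0.00751) and 0.45 ± 0.0934 with NC (edgeR adjusted p = 0.00506). With gag it was -0.08 (95% interval -0.28 to 0.11). The differences themselves passed, at 0.49 ± 0.0937 for gag-pol against gag (edgeR adjusted p = 0.00542) and 0.53 ± 0.0938 for NC against gag (edgeR adjusted p = 0.00103). Without control replicate 3, the value for gag-pol against control was 0.34 (edgeR adjusted p = 0.0537), and without gag replicate 1 that for gag-pol against gag was 0.44 (edgeR adjusted p = 0.0594).

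*HOXC6*, a gene of the thorax and forelimb level, had 2208, 1829 and 3074 normalized read counts in control. It had 1527, 1556 and 1810 with gag-pol, 1711, 1719 and 2814 with gag, and 1527, 1448 and 1908 with NC. All gag-pol libraries lay below all control libraries, while NC overlapped control through its replicate 3 and was lower within each number. The fall was -0.51 ± 0.0979 (log2, SE) with gag-pol (edgeR adjusted p = 0.00227) and -0.52 ± 0.0979 with NC (edgeR adjusted p = 0.00264), and both held with any 1 library left out. With gag it was -0.19 (95% interval -0.39 to 0.01). The difference was -0.33 ± 0.0982 for NC against gag (edgeR adjusted p = 0.0241) and -0.32 ± 0.0981 for gag-pol against gag (edgeR adjusted p = 0.0525). The call for NC against gag was lost without gag replicate 2, gag replicate 3, NC replicate 1 or NC replicate 3 (edgeR adjusted p up to 0.192).

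*HOXB5*, a trunk gene that also acts in enteric neural crest, had 661, 746 and 1125 normalized read counts in control. The counts were 557, 546 and 758 with gag-pol, 390, 582 and 880 with gag, and 566, 497 and 862 with NC. Each construct was lower than control in all 3 replicate numbers, and all groups overlapped. The fall with gag-pol was -0.42 ± 0.129 (log2, SE; edgeR adjusted p = 0.0369). With gag the value was -0.47 ± 0.130 (edgeR adjusted p = 0.0811) and with NC -0.39 ± 0.129 (edgeR adjusted p = 0.0504), neither of which passed. The NC value was called under 6 of 7 other settings, all but the one without the replicate block, and with 2 of the 12 libraries left out in turn. The gag value was called under 3 of 7, by DESeq2, with no filter and with 6 libraries, and with 0 of the 12 left out. The constructs are therefore not separated by these calls of *HOXB5*. Gag-pol did not differ detectably from gag (0.05, 95% interval -0.22 to 0.32). The gag-pol call was lost without any 1 control library and without gag-pol replicate 2 or 3 (edgeR adjusted p up to 0.210).

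**Figure D3:**
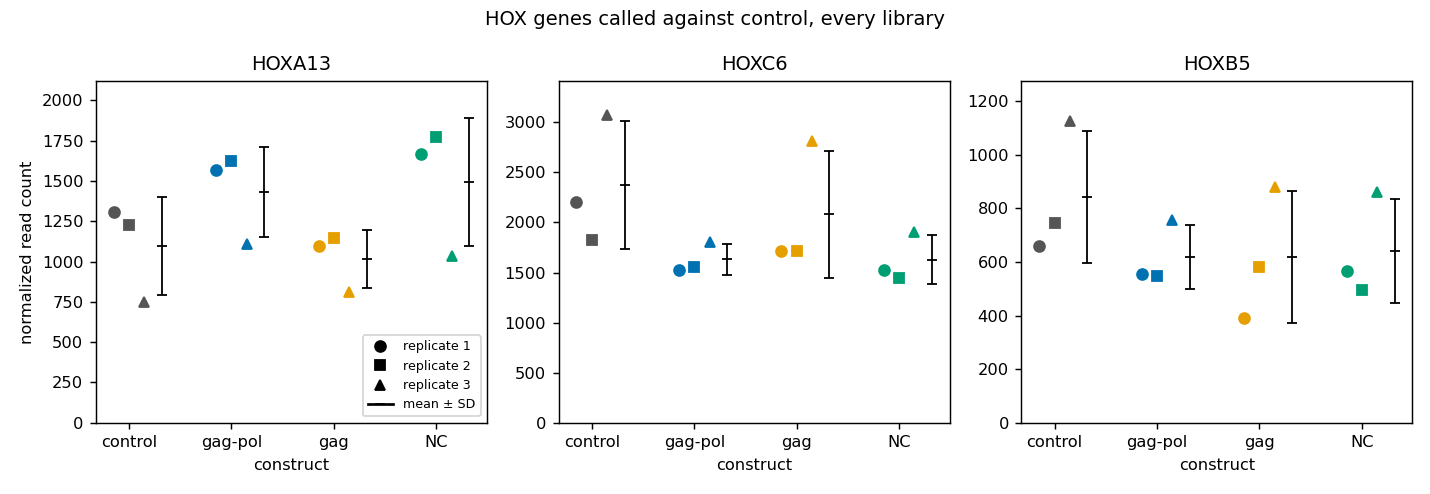
Normalised read counts (y axis, from 0) of HOXA13, HOXC6 and HOXB5 in every library by construct, with symbols for the replicate number and a bar for the mean ± SD of 3 libraries. Replicate 3 is the lowest library of every construct for HOXA13 and the highest for HOXC6 and HOXB5, and within a number HOXA13 is higher and HOXC6 lower with gag-pol and NC than with control.

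These calls rest on the comparison within replicate numbers. Without the replicate number in the model, the log2 fold changes were 0.38 and 0.45 for *HOXA13* and -0.54 and -0.54 for *HOXC6*, with gag-pol and NC, and edgeR called 0 HOX genes and at most 3 genes of the whole table in any construct comparison (*HOXA13* and *HOXC6*, edgeR adjusted p from 0.622 to 0.679).

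The other 34 HOX genes did not pass the test with gag-pol, with log2 fold changes from -0.33 for *HOXB8* to 1.24 ± 0.652 for *HOXD12*, the last on few counts. With NC the 35 others ran from -0.64 ± 0.336 for *HOXD1* to 0.90 ± 0.659 for *HOXD12*. With gag, all 37 ran from -0.51 ± 0.334 for *HOXD1* to 1.07 ± 0.671 for *HOXD12*. Summed over whole clusters, HOXA was 119.6 ± 11.1 in gag-pol libraries, 119.2 ± 6.68 in gag libraries and 116.3 ± 3.89 in NC libraries (SD, n = 3), and HOXD 109.8 ± 11.2, 107.1 ± 20.02 and 108.6 ± 10.95. HOXC was 114.6 ± 7.35, 122.2 ± 17.96 and 116.3 ± 8.57, and HOXB 168.0 ± 6.47, 171.5 ± 11.05 and 174.8 ± 6.21. In every cluster the libraries of each construct overlapped those of control. Within replicate numbers, HOXC was lower than control in 3 of 3 with each construct, by a mean difference of -13.7 ± 9.41 for gag-pol, -6.07 ± 5.93 for gag and -11.95 ± 7.88 for NC (SD, n = 3). HOXB was lower in 3 of 3 with gag-pol (-12.2 ± 7.78) and gag (-8.69 ± 4.44) and in 2 of 3 with NC (-5.4 ± 9.65). HOXA and HOXD differed in both directions. No test was run on these sums.

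Among the 4 constructs together, edgeR called 4 HOX genes as different in any way, 10.8% against 20.6% of all genes. They were *HOXA13*, *HOXC6*, *HOXB2* and *HOXB5*. Between gag-pol and gag, 1 HOX gene was called, *HOXA13*, 2.7% against 6.46% of all genes. That count was 0 without gag replicate 1, 3 without control replicate 3 or gag-pol replicate 2, and 4 without NC replicate 2.

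NC against gag gave 6 HOX genes, 16.2% against 16.9% of all genes, of which 8.76% were higher and 8.12% lower. *HOXA13* and *HOXB9* were higher with NC, and *HOXA7*, *HOXC8*, *HOXB2* and *HOXC6* lower. *HOXC8*, a gene of brachial motor neurons, ran from 799 to 871 normalized read counts with gag and from 533 to 729 with NC, with no overlap, a difference of -0.42 ± 0.116 (log2, SE; edgeR adjusted p = 0.0162). This call was lost without gag replicate 1, NC replicate 1 or NC replicate 2 (edgeR adjusted p up to 0.135). It was not called in any comparison with control. The count of 6 was 2 without gag replicate 1, gag replicate 3 or NC replicate 1, 3 without NC replicate 3, and 4 without gag replicate 2, the library with the *MYH6* counts.

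Between NC and gag-pol, edgeR called 0 of the 37 HOX genes, against 0.0873% of all genes. At an unadjusted p under 0.05 there were also 0, and DESeq2 called 0. The median log2 difference was -0.01 over the HOX genes and 0.02 over all genes, and the former ran from -0.05 without gag-pol replicate 3 to 0.03 without gag-pol replicate 1, so it had no fixed sign.

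The mean of gag-pol and NC set against the mean of gag and control gave 8 HOX genes, 21.6% against 24.7% of all genes, with 2 higher and 6 lower. Among all genes 13.1% were higher and 11.6% lower. *HOXA13* was higher by 0.47 ± 0.0661 (log2, SE; edgeR adjusted p = 7.38e-05) and *HOXC6* lower, at -0.42 ± 0.0693 (edgeR adjusted p = 0.000249). By cluster the calls were 2 of 11 in HOXA, 3 of 9 in HOXB, 2 of 8 in HOXC and 1 of 9 in HOXD. The count was 3 without gag-pol replicate 3 or gag replicate 3, 4 without control replicate 3 or gag replicate 2, and 5 without gag-pol replicate 1 or NC replicate 1. The 6 genes not yet described follow by position.

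*HOXB2*, which maintains rhombomere identity in the hindbrain, had 2532, 2301 and 3428 normalized read counts in control and 2900, 2319 and 3538 with gag. It had 2543, 2071 and 2498 with gag-pol and 2399, 2012 and 2391 with NC. The gap was widest in replicate 3, and the groups overlapped. The difference was -0.28 ± 0.0637 (log2, SE; edgeR adjusted p = 0.00338).

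*HOXB3*, expressed in the posterior hindbrain, had 1854, 1871 and 2310 normalized read counts in control and 1725, 2221 and 2201 with gag. It had 1490, 1797 and 1567 with gag-pol and 1881, 1425 and 1922 with NC. Replicate 1 of NC stood above replicate 1 of control and gag, so not every number showed the fall. The difference was -0.27 ± 0.0819 (log2, SE; edgeR adjusted p = 0.0217).

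*HOXD3*, which patterns the first neck vertebrae, had 485, 527 and 563 normalized read counts in control and 534, 567 and 581 with gag. It had 577, 392 and 449 with gag-pol and 393, 330 and 540 with NC. Replicate 1 of gag-pol was higher than its control and gag partners, against the direction of the rest. The difference was -0.30 ± 0.107 (log2, SE; edgeR adjusted p = 0.0462).

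*HOXA7*, a trunk gene, had 124, 94.9 and 175 normalized read counts in control and 184, 106 and 176 with gag. The counts were 134, 100 and 99.7 with gag-pol and 114, 68.8 and 89.3 with NC. NC was lower than control and gag in every number, and gag-pol was above control in replicates 1 and 2. The difference was -0.49 ± 0.163 (log2, SE; edgeR adjusted p = 0.0315), and that of *HOXA-AS3*, which overlaps *HOXA7* exons, was -0.29 ± 0.105 (edgeR adjusted p = 0.0484). Without a known strand setting, the reads of the pair cannot be told apart.

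*HOXB9* had 6742, 7753 and 6198 normalized read counts in control and 6943, 7129 and 6140 with gag. It had 6902, 7459 and 7299 with gag-pol and 7516, 8379 and 7646 with NC. All NC libraries lay above all gag libraries, and gag-pol overlapped gag and control but lay below NC. The difference of 0.15 ± 0.0525 (log2, SE; edgeR adjusted p = 0.0451) was the smallest of the 8.

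*HOXC9*, which sets thoracic motor neuron identity, had 1724, 1363 and 1573 normalized read counts in control and 1451, 1268 and 1730 with gag. It had 1357, 1178 and 1383 with gag-pol and 1433, 1313 and 1345 with NC. The groups overlapped, and NC was above gag in replicate 2. The difference was -0.18 ± 0.0658 (log2, SE; edgeR adjusted p = 0.0475). With any 1 of the 12 libraries left out, *HOXA13*, *HOXC6* and *HOXB2* were called each time, *HOXA7* and *HOXB3* in 6 of 12 cases, and *HOXB9*, *HOXC9* and *HOXD3* in 3 of 12.

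Other transcripts of the clusters and the regulators of HOX genes were counted in the same fits, from lists of genes chosen by name. Their counts stand beside 11.3% of all genes called for gag-pol, 1.08% for gag and 11.2% for NC. Of 18 tested noncoding and flanking transcripts of the clusters, edgeR called 2 lower with gag-pol, a share close to that of all genes, 1 lower with NC and 0 with gag, where 2 had an unadjusted p under 0.05 and DESeq2 called 0. *HOXC13-AS*, antisense to *HOXC13*, changed by -1.17 ± 0.244 (log2, SE) with gag-pol (edgeR adjusted p = 0.00399) and by -0.84 ± 0.241 with NC (edgeR adjusted p = 0.0271). *HOXB-AS3*, which overlaps *HOXB5*, changed by -0.48 ± 0.138 with gag-pol (edgeR adjusted p = 0.0259). The list's median was -0.31 for gag-pol, -0.18 for gag and -0.11 for NC.

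Of 15 tested protein-coding genes that flank the clusters, *CALCOCO1*, a coactivator and autophagy receptor gene next to HOXC, was lower with all 3 constructs, at -0.51 ± 0.0882 for gag-pol, -0.42 ± 0.0882 for gag and -0.43 ± 0.0882 for NC (log2, SE; edgeR adjusted p = 0.00119, 0.0165 and 0.00461). *HNRNPA1*, an RNA-binding protein gene also beside HOXC, was higher with NC by 0.29 ± 0.0866 (edgeR adjusted p = 0.0358). The other 13 were not called against control.

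The cofactors and chromatin regulators of HOX genes follow. Of the 9 TALE cofactor genes, edgeR and DESeq2 each called 0 with each construct, while 2, 2 and 0 had an unadjusted p under 0.05 in edgeR with gag-pol, gag and NC. Of 27 Polycomb genes, gag-pol changed 2, gag 1 and NC 4, against the same 11.3%, 1.08% and 11.2% of all genes. *RBBP7*, a histone-binding subunit, was higher by 0.41 ± 0.0870 with gag-pol and 0.48 ± 0.0869 with NC (log2, SE; edgeR adjusted p = 0.00483 and 0.00215). *PHF1*, which recruits the complex, was lower, at -0.49 ± 0.101 and -0.50 ± 0.101 (edgeR adjusted p = 0.00384 and 0.00423), and *PCGF1* was higher with gag by 0.57 ± 0.129 (edgeR adjusted p = 0.0293). A further call with NC, *CBX6*, was named after its values were seen.

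The list of 14 trithorax and H3K27 demethylase genes also took in *CTCF* and *DOT1L*. Of the 14, edgeR called 2 with NC, against 11.2% of all genes, and 0 with gag-pol or gag, where 2 and 1 had an unadjusted p under 0.05 and DESeq2 called 1 each. *KDM6A*, an H3K27 demethylase, was lower at -0.38 ± 0.114 and *PSIP1*, a chromatin tether, higher by 0.28 ± 0.0765 (log2, SE; edgeR adjusted p = 0.0367 and 0.0229). Of 16 tested genes of upstream signals, edgeR called 2 lower with gag-pol, 3 lower with NC and 0 with gag, where 3 had an unadjusted p under 0.05 and DESeq2 called 1. The retinoic acid receptor *RARG* was lower at -0.41 ± 0.0928 with gag-pol and -0.30 ± 0.0928 with NC (edgeR adjusted p = 0.00693 and 0.0367). *GDF11*, a growth factor that promotes posterior HOX expression in embryos, was lower with gag-pol at -0.35 ± 0.0924 (edgeR adjusted p = 0.0156), and the receptors *RARA* and *RXRB* were lower with NC, at -0.27 ± 0.0828 and -0.25 ± 0.0804 (edgeR adjusted p = 0.0371 and 0.0449). The list medians with gag-pol, gag and NC were 0.04, -0.02 and -0.07 for Polycomb and -0.10, -0.08 and 0.06 for upstream signals.

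As in the whole table, more HOX genes differed between replicate numbers than between constructs. With construct in the model, edgeR called 21 of the 37 as different among the 3 replicate numbers. This share of 56.8% was close to the 52.8% of all genes. Among the 4 constructs the shares were 10.8% of HOX genes and 20.6% of all genes. The clusters gave 6 of 11 in HOXA, 5 of 9 in HOXB, 6 of 8 in HOXC and 4 of 9 in HOXD. The series describes the replicates as independent passages, and the labels give the numbers only. Whether libraries of the same number share a passage, and what else differed between numbers, is not given in the sources used here.

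The direction differed by cluster. All 5 called HOXB genes and all 6 called HOXC genes were highest in replicate 3, whereas 35.5% of the 9074 genes called in the whole table were. In HOXA, 4 of 6 called genes were highest in replicate 1, against 37.9% in the whole table, and in HOXD, 3 of 4 were lowest in replicate 1, against 37.6%. The counts over the clusters are a description, since neighboring genes and overlapping transcripts are not independent.

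**Figure D4:**
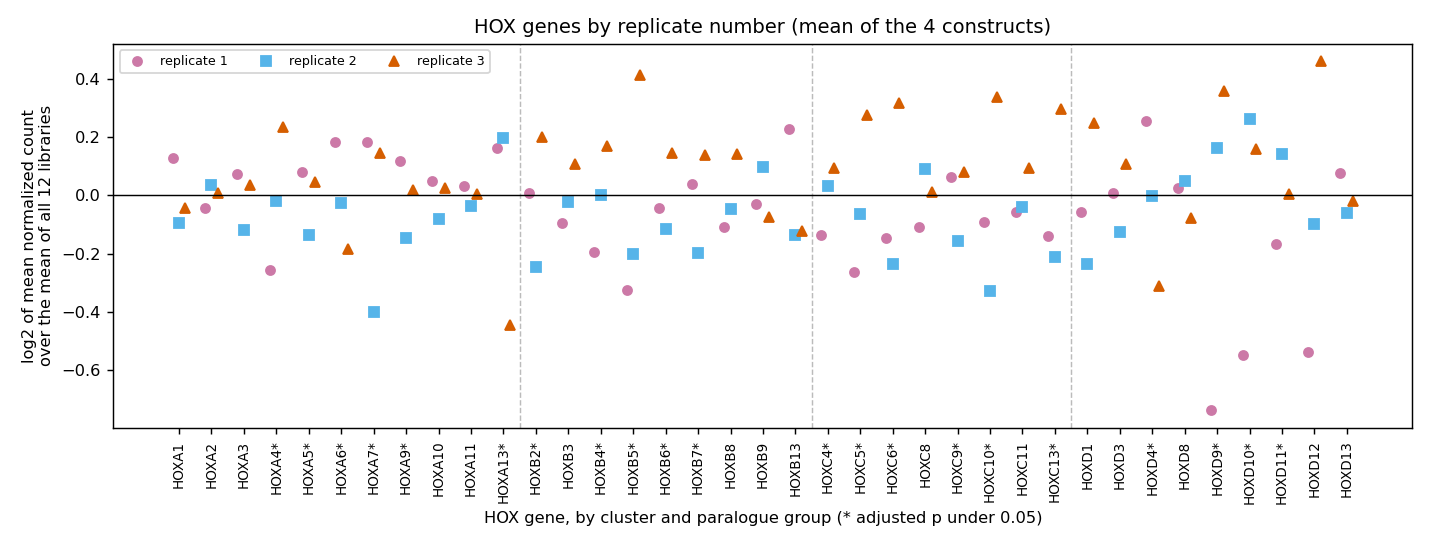
Mean normalized read count of each of the 37 tested HOX genes in the 4 libraries of each replicate number, as the log2 ratio to the mean of all 12 libraries (y axis), in cluster order, with a star for the 21 genes with an adjusted p under 0.05 in edgeR. Triangles for replicate 3 lie on top at most HOXB and HOXC genes and below at HOXA13, and circles for replicate 1 lie far below at HOXD9 and HOXD10.

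*HOXD10* and *HOXD9*, neighbors that act in the limb and the lumbar spinal cord, showed the widest gaps of the 21 called genes. *HOXD10* ran from 1543 to 2013 normalized read counts in the 4 libraries of replicate 1, from 2611 to 3165 in replicate 2 and from 2603 to 3184 in replicate 3. *HOXD9* ran from 716 to 950 in replicate 1, from 1064 to 1668 in replicate 2 and from 1343 to 2002 in replicate 3. Replicate 1 lay below both others without overlap for each gene. Replicate 2 exceeded replicate 1 by 0.82 ± 0.0884 (log2, SE) for *HOXD10* and by 0.90 ± 0.162 for *HOXD9* (edgeR adjusted p over the 3 numbers = 6.07e-07 and 0.000564).

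*HOXD11*, which shares exon bases with *HOXD10*, ran from 1443 to 1740 in replicate 1, from 1797 to 2109 in replicate 2 and from 1698 to 1874 in replicate 3, a difference of 0.31 ± 0.0748 (log2, SE) for replicate 2 against 1 (edgeR adjusted p over the 3 numbers = 0.00552). Beyond *HOXD12*, which had few counts, *HOXD13*, a gene of digit patterning, differed by 1.10-fold between the highest and lowest number and was not called (edgeR adjusted p = 0.275). The gap thus covered *HOXD9* to *HOXD11*, and *HOXD8* on the other side differed by 1.09-fold (edgeR adjusted p = 0.536).

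**Figure D5:**
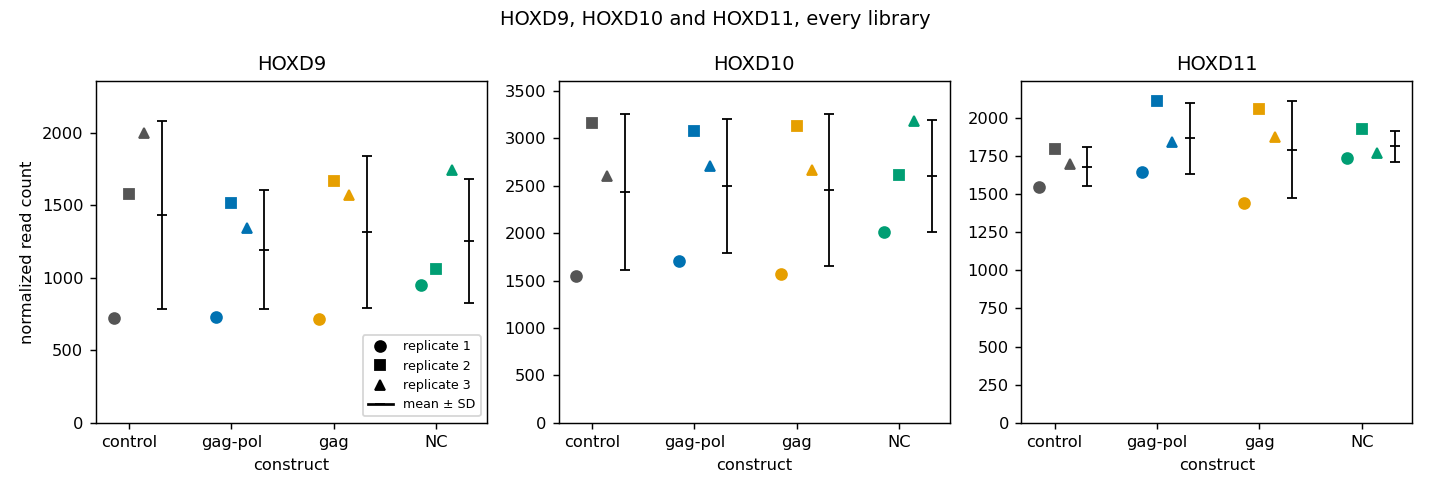
Normalised read counts (y axis, from 0) of HOXD9, HOXD10 and HOXD11 in every library by construct, with symbols for the replicate number and a bar for the mean ± SD of 3 libraries. Replicate 1 is the lowest library of every construct for each of the 3 genes.

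*HOXA13* went the other way and was lowest in replicate 3, at 748 to 1108 normalized read counts, against 1095 to 1669 in replicate 1 and 1148 to 1774 in replicate 2. Its difference for replicate 3 against 2 was -0.63 ± 0.0813 (log2, SE; edgeR adjusted p over the 3 numbers = 2.36e-06), larger than its difference between any construct and control. *HOXB5* was highest in replicate 3, at 758 to 1125 against 390 to 661 in replicate 1, a difference of 0.74 ± 0.113 (edgeR adjusted p over the 3 numbers = 2.21e-05). *HOXC10*, a lumbar gene, ran from 869 to 1416 in replicate 3 against 631 to 753 in replicate 2, a difference of 0.64 ± 0.110 (edgeR adjusted p over the 3 numbers = 0.000172). Over the 21 called genes, the highest number exceeded the lowest by 1.16-fold for *HOXA5* to 2.13-fold for *HOXD9*.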

How the data were processed

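Poly(A) RNA-seq was analysed in 12 libraries of transfected HEK293 cells, grouped by construct from the labels. The authors deposited raw counts per gene symbol. The submitters' processing notes name STAR 2.7.3, SAMtools 1.8, featureCounts and GRCh38.p13. Annotation release, strand setting and treatment of multiply mapped reads are not given in the sources used here.

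Counts were fitted over the whole table with edgeR 4.0.16 in R 4.3.3 (TMM, low-count filter with minimum count 10 and minimum total 15, robust quasi-likelihood test), with construct and replicate number as terms. P-values were Benjamini-Hochberg adjusted over 17176 genes, with a threshold of 0.05, and the fit was tested on simulated data. The study's model used harvest date. The labels give no date per library, so the replicate number was used in its place, and whether the numbers match dates is not known. After removal of construct means, libraries with the same number correlated at 0.138 to 0.539 (18 pairs) and others at -0.498 to 0.072 (36 pairs). Deviations within a construct then cancel, so positive correlations within a number go with negative ones between numbers by construction. The ranges are therefore not independent. Normalized counts are counts over TMM-scaled library size, times the mean library total. Levels were divided by union exon length in GENCODE release 44. Promoters are from RefSeq.

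The members and lists were chosen with earlier results of these data known. HOX genes called against control or for gag-pol plus NC compared with gag plus control were given in every library, the others by ranges, and at most 3 called genes per list and comparison with control were named. *HOXA-AS3* and the *MYH6* counts were singled out after their values were seen. Alternatives were DESeq2 1.42.0, RLE factors, other filters, *PEG10* left out, no replicate number or construct term, 6 libraries, each library left out, longest transcripts and no TMM. Figures were drawn with matplotlib 3.10.9. A Polycomb gene and a homeobox sequence are not reported here.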

Additional observations from a re-analysis of the deposited data

How the results depend on the processing

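No alternative turned the direction of any of the 20 HOX fold changes that passed the test. These repeat some genes across comparisons and were chosen for passing in the same libraries, so a kept direction is weak evidence. Over all 372 combinations of result and setting, 277 kept the call and 95 lost it, 20 of these without the replicate block. Under the alternatives other than leaving out a library or the replicate block, 107 of 112 kept it. Without the replicate block, edgeR called 0 HOX genes in each of the 7 construct comparisons and among the 4 constructs, where the whole table gave 0 to 3 calls, and without a construct term it called 13 between replicate numbers. The calls therefore depend on the pairing by replicate number. DESeq2 called 1 HOX gene for gag against control, 4 for NC against control and 3 for gag-pol against gag. With no filter these counts were 1, 4 and 4, and with only the 6 libraries compared they were also 1, 4 and 4. With at least 10 counts in every library, NC against control gave 4 and gag-pol against gag 3. RLE factors and leaving out *PEG10* moved no count of HOX genes by over 1.5 times. With a library left out, the counts ran from 1 to 5 for gag-pol against control, 2 to 4 for NC against control, 0 to 4 for gag-pol against gag, 2 to 8 for NC against gag and 3 to 7 for gag-pol plus NC compared with gag plus control. Between replicate numbers they ran from 14 to 22. Calls over the whole table for gag against control were 186, against 443 by DESeq2, 373 with no filter and 344 with 6 libraries, and for NC against gag-pol 15, against 124, 129 and 44, and 9 with at least 10 counts in every library. With 6 libraries, gag-pol gave 1131 calls against 1942, and gag-pol against gag 2628 against 1109. With the longest transcript as length, the control levels were 139.9 for HOXA, 209.5 for HOXB, 163.8 for HOXC and 125.2 for HOXD, in place of 120.4, 180.2, 128.3 and 107.9. The cause of these shifts was not tested.

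Depth limits *HOXB1*, *HOXC12* and *HOXD12*, which had at most 27 counts in any library. With 3 replicates and 6 residual degrees of freedom before moderation, small differences can be missed, and a gene that was not called is not shown to be unchanged. Counting settings for strand, several mapping places and annotation release are not given in the sources used here, so overlapping pairs such as *HOXA7* and *HOXA-AS3* remain uncertain.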

Other observations

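Genes around and upstream of the HOX clusters were also called between replicate numbers, as were many genes of the whole table. At an edgeR adjusted p under 0.05, 17 of 27 Polycomb genes, 11 of 14 genes of the trithorax and H3K27 demethylase list, 9 of 16 upstream signal genes, 10 of 15 flanking genes and 5 of 9 TALE cofactor genes were called, against 52.8% of all genes tested. The shares of the upstream signal and TALE cofactor genes were close to that of all genes. The noncoding and flanking transcripts of the clusters gave 4 of 18, a lower share. These were *HOXA-AS3*, *HOXA11-AS*, *HOXC-AS1* and *HOXC13-AS*, named after their values were seen. The same 12 libraries underlie these counts and those of the HOX genes.

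For gag-pol plus NC compared with gag plus control, 10 of 27 Polycomb genes were called, 4 higher and 6 lower, against 24.7% of all genes. *RBBP7* was higher by 0.42 ± 0.0615 and *PHF1* lower, at -0.39 ± 0.0712 (log2, SE; edgeR adjusted p = 9e-05 and 0.000619). EdgeR and DESeq2 each called 0 of the 9 TALE cofactor genes there, while 3 had an unadjusted p under 0.05 in edgeR, and 3 noncoding transcripts were lower, *HOXC13-AS* at -0.77 ± 0.173 (edgeR adjusted p = 0.00274).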
